A study of Mus musculus with 25 samples.

Results

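The genes described here are 9 of the 54752 genes in the count files: Insr, Irs1, Irs2, Pik3r1, Akt2, Slc2a4, Trarg1, Grb10 and Grb14, which carry insulin signalling and glucose uptake in fat cells. They were chosen by name for their known function, with earlier results of these data known, and found by joining the Ensembl identifiers of the files to mouse gene symbols. All 9 passed the filter on low counts in both fat depots. RNA was sequenced from epididymal (eWAT, visceral) and inguinal (iWAT, subcutaneous) white adipose tissue of male C57BL/6N mice, to ask how a high-fat diet (HFD) and the loss of Acod1 alter the fat transcriptome. Acod1 encodes the enzyme that makes itaconate, a metabolite of activated macrophages. Each depot has wild type mice on normal chow (ND; 4 eWAT and 3 iWAT libraries), wild type mice on HFD (5 and 5) and Acod1-/- mice on HFD (5 and 3), 25 libraries in all, and no ND-fed Acod1-/- group was part of the design used here. The Acod1-/- mice were of the strain C57BL/6N-Acod1em1(IMPC)J/J, a germline knockout, so the gene is missing from every cell and not from adipose tissue alone. Diets began at 5 weeks of age, when mice were placed in single cages, the HFD took 60% of its calories from fat, and feeding lasted 16 weeks, except that 2 of the 3 iWAT Acod1-/- libraries, replicates 2 and 3, are labelled 17 and 18 weeks.

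Insulin binds its receptor, the product of Insr, which phosphorylates the docking proteins IRS1 and IRS2. These recruit PI3-kinase through its regulatory subunit p85 alpha (Pik3r1), and the lipid made by the kinase brings AKT2 to the membrane. In adipocytes, AKT2 activity sends vesicles holding the glucose transporter GLUT4 (Slc2a4) to the cell surface, and TRARG1 is a protein of those vesicles. GRB10 and GRB14 bind the activated receptor and restrain its signal. All values below are messenger RNA levels and say nothing of protein amount, phosphorylation or uptake.

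The sum of counts on genes ran from 31.41 M to 52.34 M reads over the libraries, with a median of 42.09 M, and each of the 9 genes was covered by 454 to 51595 reads in each library. Levels are CPM, read counts scaled to library size with TMM normalization over the 25 libraries. Numbers in the column headers split the libraries into 2 series: series 2 holds every ND-fed library plus 1 library of each HFD-fed group in each depot, so that diet and series nearly coincide. Acod1 was at the limit of detection, with at most 9 reads in any library, and did not differ detectably between the HFD-fed genotypes (two-sided exact permutation test, p = 0.484 in eWAT, n = 5 and 5, and p = 0.571 in iWAT, n = 3 and 5), so that its counts do not check the labels. The summed level of 8 adipocyte markers was 28230 to 42600 CPM in ND-fed wild type, 17780 to 39150 CPM in HFD-fed wild type and 29260 to 46050 CPM in Acod1-/- eWAT. None of the 8, Adipoq and Plin1 among them, was at the floor (at most 3 reads in every library) in any group. The summed level of 10 macrophage markers was 536 to 999, 2259 to 6768 and 563 to 1932 CPM in the same order. In iWAT, the adipocyte sums were 28910 to 35940, 35980 to 45970 and 35870 to 49960 CPM. Single libraries held other tissue: the 6 epididymis markers summed to 6601 CPM in ND-fed eWAT replicate 2, the 8 skeletal muscle markers to 8551 CPM in ND-fed iWAT replicate 1, and the 6 lymphocyte markers to 430 to 660 CPM in the 3 ND-fed iWAT libraries against 1.503 to 55.7 CPM in the other iWAT libraries. Each comparison was fitted with edgeR's quasi-likelihood test, with Benjamini-Hochberg adjustment over all genes tested, and called below 0.1. Errors of log2 fold changes are standard errors, and errors of levels are SD.

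Upstream sequences of 4 members are shown because these genes give the contrasts that recur in the results: Irs1 and Irs2 are the paired substrates, of which Irs1 passed in 3 of the diet and genotype comparisons and Irs2 in 1, and Grb10 and Grb14 are sister adaptors that moved in different directions in eWAT. Each is the stretch before the start of a RefSeq transcript in GRCm38.p6, written 5′ to 3′ on the strand of the gene. The stretches of Grb10 and Grb14 lie within the GENCODE spans of these genes, which begin further upstream, and those of Irs1 and Irs2 lie outside theirs. That of Grb14 stops 16 bases before the start, since the GENCODE annotation has an exon there, and Grb10 has a second RefSeq start, which is not shown. The capitals mark every match within the printed letters, on either strand, of the motifs searched for: the E-box with letters CACGTG, the SP1 motif with letters GGGCGG, the CCAAT box, the nuclear receptor motif with letters AGGTCA, its direct repeat DR1, which contains it, the forkhead motif with letters GTAAACA, and the MEF2 and C/EBP motifs.
Irs1, chr1:82291440-82291689, minus strand, 250 bases: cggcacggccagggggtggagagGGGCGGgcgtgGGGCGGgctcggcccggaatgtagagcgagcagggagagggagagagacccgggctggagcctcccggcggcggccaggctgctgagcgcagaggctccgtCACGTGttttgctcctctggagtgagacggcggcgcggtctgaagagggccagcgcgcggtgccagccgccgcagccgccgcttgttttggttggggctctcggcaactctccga
Irs2, chr8:11008930-11009179, minus strand, 250 bases: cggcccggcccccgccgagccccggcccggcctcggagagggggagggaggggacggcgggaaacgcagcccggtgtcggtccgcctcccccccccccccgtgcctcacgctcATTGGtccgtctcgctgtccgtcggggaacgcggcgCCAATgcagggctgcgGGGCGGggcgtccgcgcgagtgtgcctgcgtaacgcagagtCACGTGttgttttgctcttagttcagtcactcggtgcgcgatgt
Grb10, chr11:12037421-12037670, minus strand, 250 bases: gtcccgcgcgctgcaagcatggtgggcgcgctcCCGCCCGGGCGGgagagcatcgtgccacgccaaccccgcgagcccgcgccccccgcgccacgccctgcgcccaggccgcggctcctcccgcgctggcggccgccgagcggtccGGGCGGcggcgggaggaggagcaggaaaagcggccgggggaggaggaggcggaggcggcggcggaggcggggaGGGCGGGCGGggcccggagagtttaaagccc
Grb14, chr2:65022783-65023016, minus strand, 234 bases: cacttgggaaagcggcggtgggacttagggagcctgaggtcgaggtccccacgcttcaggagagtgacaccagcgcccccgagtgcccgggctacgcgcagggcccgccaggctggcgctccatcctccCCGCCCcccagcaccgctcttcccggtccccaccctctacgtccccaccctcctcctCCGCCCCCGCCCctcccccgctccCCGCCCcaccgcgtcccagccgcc
The stretches of Irs1 and Irs2 each held 1 E-box, at positions -115 and -44 counted from the start, and 6.02% of the 32851 promoter windows searched held one. Irs2 also held 2 CCAAT matches, a motif of 33.8% of windows. SP1 matches numbered 2 in Irs1, 1 in Irs2, 5 in Grb10, of which the last 2 overlap, and 5 in the 250 bases before the start of Grb14, 4 of them in the printed stretch, and 32.7% of windows held at least 1. No match of the nuclear receptor, DR1, forkhead, MEF2 or C/EBP motif, which 14.0%, 0.0335%, 3.17%, 3.2% and 1.93% of windows held, fell in these 4 stretches, and the stretch before the second start of Grb10 held a MEF2 match at -24. A match is a run of letters and not a bound site. RefSeq windows were matched for 6 of the 9 members, those above and Akt2 and Pik3r1, and Insr, Slc2a4 and Trarg1 are named only.

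In GRCm38, with gene models of GENCODE vM21, Insr (ENSMUSG00000005534) lies at chr8:3122061-3279617, Irs1 (ENSMUSG00000055980) at chr1:82233101-82291416, Irs2 (ENSMUSG00000038894) at chr8:10984681-11008458 and Pik3r1 (ENSMUSG00000041417) at chr13:101680563-101768217. Akt2 (ENSMUSG00000004056) lies at chr7:27591552-27640826, Slc2a4 (ENSMUSG00000018566) at chr11:69942539-69948188, Trarg1 (ENSMUSG00000046275) at chr11:76679808-76698664, Grb10 (ENSMUSG00000020176) at chr11:11930508-12038683 and Grb14 (ENSMUSG00000026888) at chr2:64912476-65024987. Akt2 and Trarg1 are on the plus strand and the other 7 on the minus strand. Insr, Irs1 and Irs2 overlap annotated genes of the opposite strand and Pik3r1 a predicted gene of its own strand, and the use of strand in counting is not given in the sources used here, so reads of these overlaps could not be assigned with certainty.

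Per kilobase of cDNA, Trarg1 was the most abundant of the 9 in all 6 groups and lay apart from the next member in each. Its mean was 102 CPM per kb in ND-fed and 182 CPM per kb in HFD-fed wild type eWAT, against 40.1 and 20.8 CPM per kb for Slc2a4. Slc2a4 and Akt2 took the next 2 places in every group, with ranges that overlapped in 5 of the 6 groups and lay apart in Acod1-/- iWAT, and Pik3r1 followed in each. The receptor and its substrates stood below, Insr at 12.3, Irs2 at 11.8 and Irs1 at 7.13 CPM per kb in ND-fed eWAT, where Insr and Irs2 overlapped. In the ND-fed groups the 2 adaptors were lowest, between 3.71 and 6.55 CPM per kb in eWAT. On HFD in wild type mice Irs1 was last in both depots, at 2.79 CPM per kb in eWAT and 4.45 in iWAT, while Grb14 in iWAT, at 15.3 CPM per kb, lay apart above Insr at 8.83.

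**Figure D1:**
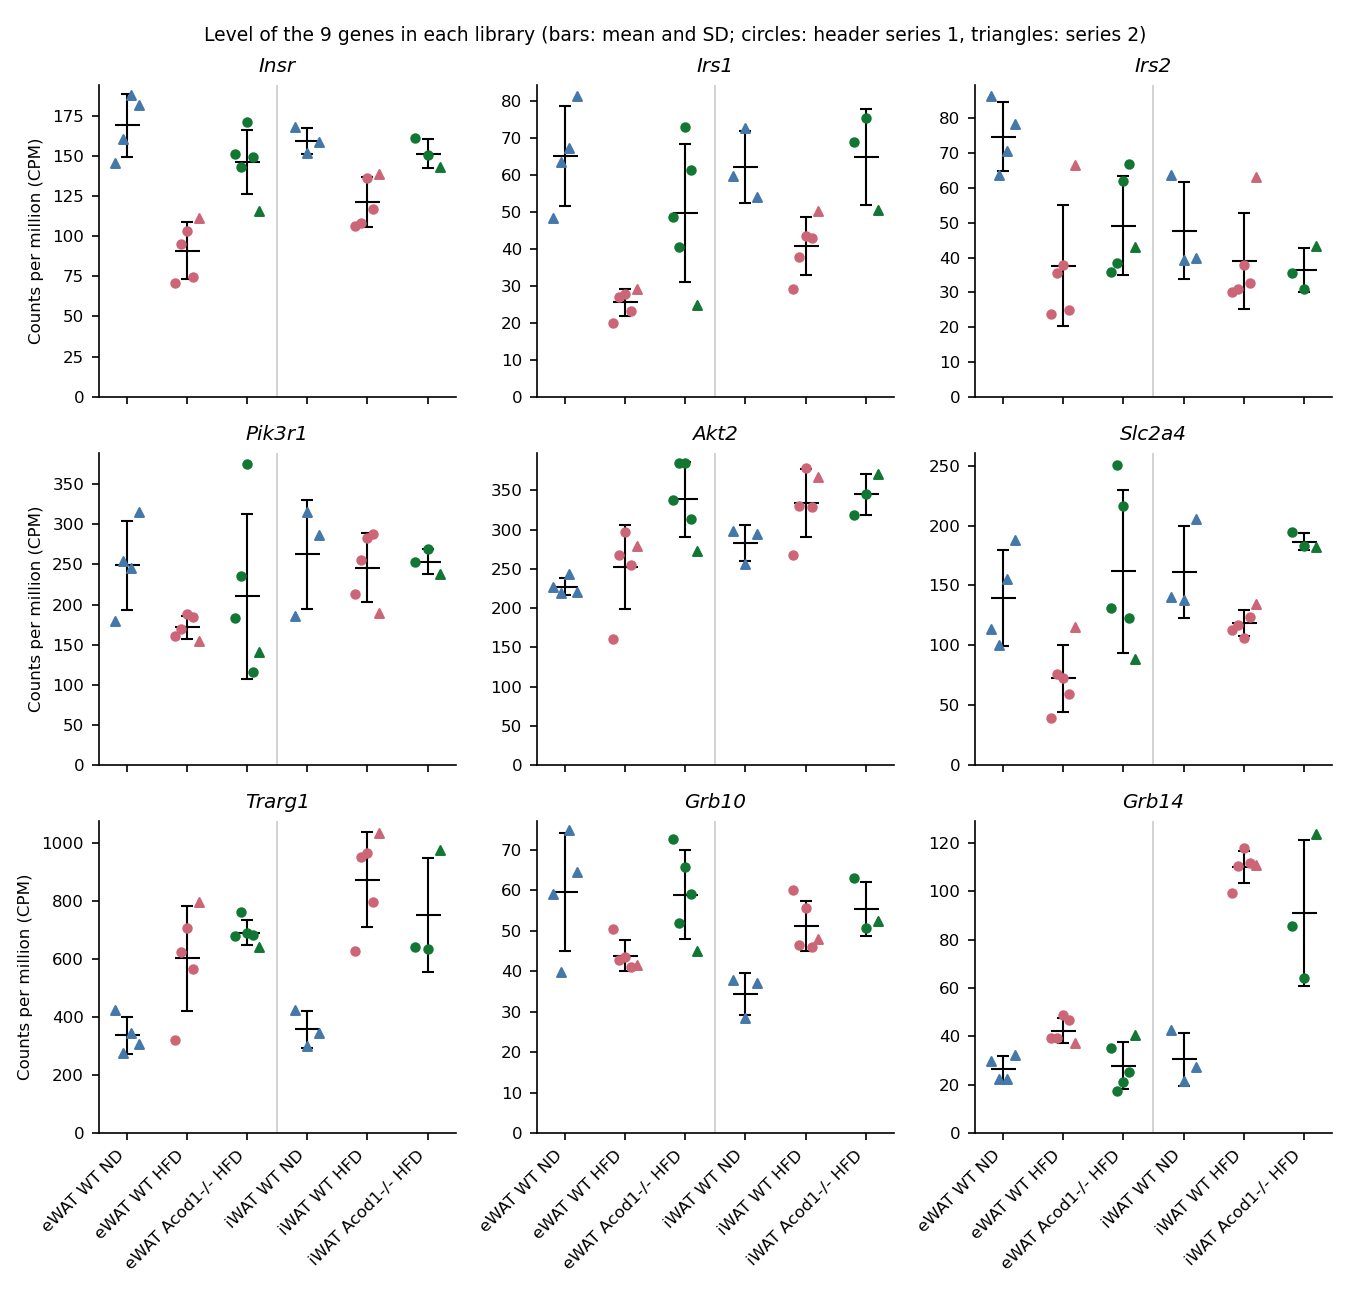
CPM of each of the 9 genes (1 panel per gene, vertical axis from 0) in every library of the 6 groups (horizontal axis), with group mean and SD as bars, circles for libraries of header series 1 and triangles for series 2. The means of Insr, Irs1 and Slc2a4 are lowest in HFD-fed wild type eWAT, those of Trarg1 are lowest on ND in both depots, and Grb14 in HFD-fed iWAT sits between 64.2 and 123.7 CPM, above every eWAT library.

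In eWAT, HFD lowered the receptor, both substrates, the glucose transporter and Grb10 in wild type mice, and raised Trarg1 and Grb14. This comparison asks how diet-induced obesity changes the pathway where Acod1 is intact. Of the 9 genes, 5 fell and 2 rose, against 51.8% of the 14936 genes tested that were called in either direction, 26.9% lower and 24.8% higher. The median log2 fold change was -0.53 over the 9 genes and -0.04 over all genes tested. The HFD-fed and ND-fed libraries did not overlap for 3 members, Insr, Irs1 and Grb14, while 35.2% of all genes tested did not overlap.

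Insr, the insulin receptor, measured 146, 161, 188.1 and 182 CPM in the 4 ND-fed wild type libraries, 71.0, 95.1, 103, 74.9 and 111 CPM in the 5 HFD-fed wild type libraries and 151, 143, 171, 149.5 and 116 CPM in the 5 HFD-fed Acod1-/- libraries of eWAT. Every HFD-fed wild type library lay below every ND-fed one and below every Acod1-/- one. Insr fell 1.85-fold on HFD (log2 fold change -0.89 ± 0.15, adjusted p = 0.00083) and was 1.60-fold higher in HFD-fed Acod1-/- than in HFD-fed wild type mice (0.68 ± 0.14, adjusted p = 0.0136). The HFD-fed wild type libraries serve in both comparisons, which are therefore not independent. Against ND-fed wild type mice the Acod1-/- level differed by -0.21 ± 0.15, adjusted p = 0.337, which did not pass the test.

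Irs1, the substrate that couples the receptor to PI3-kinase in adipocytes, had the largest drop of the 9 in eWAT. It stood at 48.4, 63.5, 67.5 and 81.5 CPM in the 4 ND-fed wild type libraries, 20.1, 27.1, 27.8, 23.3 and 29.3 CPM in the 5 HFD-fed wild type libraries and 48.7, 40.4, 73.1, 61.4 and 24.7 CPM in the 5 HFD-fed Acod1-/- libraries. The HFD-fed wild type libraries, none above 29.3 CPM, were below all ND-fed ones, whereas the Acod1-/- libraries spread from 24.7 to 73.1 CPM and the lowest of them, replicate 5 of header series 2, lay within the HFD-fed wild type range. Irs1 fell 2.55-fold on HFD (-1.35 ± 0.25, adjusted p = 0.00137) and was 1.95-fold higher with the deletion (0.96 ± 0.24, adjusted p = 0.0228). Irs2, the second substrate, was at 86.4, 63.6, 70.7 and 78.3 CPM in the 4 ND-fed wild type libraries, 23.6, 35.5, 37.97, 24.9 and 66.5 CPM in the 5 HFD-fed wild type libraries and 35.7, 38.3, 61.9, 66.8 and 43.04 CPM in the 5 HFD-fed Acod1-/- libraries. It fell 1.98-fold on HFD (-0.99 ± 0.28, adjusted p = 0.0126), with 1 HFD-fed library, replicate 5 at 66.5 CPM, inside the ND-fed range. The genotype difference of Irs2, 0.38 ± 0.26, adjusted p = 0.362, did not pass.

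Pik3r1 and Akt2, the kinase steps after the receptor, did not pass the diet test in eWAT, at -0.53 ± 0.27, adjusted p = 0.131 and 0.15 ± 0.16, adjusted p = 0.469. Pik3r1 measured 179.8, 254, 246 and 316 CPM in the 4 ND-fed wild type libraries, 161, 169.8, 187.8, 185 and 155 CPM in the 5 HFD-fed wild type libraries and 183, 236, 376, 116 and 141 CPM in the 5 HFD-fed Acod1-/- libraries. Pik3r1 did not pass the diet test in the fit of all eWAT groups (-0.53, adjusted p = 0.131) and passed it when only the 2 groups were fitted (-0.54, adjusted p = 0.0201) and without ND-fed replicate 1 or Acod1-/- replicate 3 or 4. The Acod1-/- group of Pik3r1 was the widest of any member in eWAT, with replicate 3 at 375.9 CPM and replicate 4 at 115.5 CPM. Akt2 measured 227, 219, 243 and 221 CPM in the 4 ND-fed wild type libraries, 161, 268, 297, 255 and 279 CPM in the 5 HFD-fed wild type libraries and 338, 385, 384, 313 and 272 CPM in the 5 HFD-fed Acod1-/- libraries. HFD-fed wild type replicate 1 stood apart below the rest of its group, and the Acod1-/- libraries lay above all ND-fed ones. Akt2 was 1.34-fold higher with the deletion (0.42 ± 0.15, adjusted p = 0.0828) and 1.49-fold higher in Acod1-/- on HFD than in wild type on ND (0.57 ± 0.16, adjusted p = 0.0318). The first of these calls was lost in 9 of the 14 fits that left out 1 eWAT library, and the second, in which group and header series nearly coincide, with series as a term (0.51, adjusted p = 0.215).

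Slc2a4, which encodes GLUT4, the insulin-regulated transporter, was at 114, 100.2, 155 and 188.3 CPM in the 4 ND-fed wild type libraries, 38.90, 75.9, 72.8, 59.2 and 116 CPM in the 5 HFD-fed wild type libraries and 131, 250.3, 216, 122 and 88.7 CPM in the 5 HFD-fed Acod1-/- libraries. HFD-fed wild type replicate 5, of header series 2, was the single HFD-fed library inside the ND-fed range, and Acod1-/- replicate 5, of the same series, was the single Acod1-/- library inside the HFD-fed wild type range. Slc2a4 fell 1.92-fold on HFD (-0.94 ± 0.33, adjusted p = 0.0344), a call lost without ND-fed replicate 4 (-0.77, adjusted p = 0.106). With the deletion it was 2.23-fold higher (1.16 ± 0.32, adjusted p = 0.0332), the largest genotype difference among the 9. Acod1-/- replicate 2, the highest library for Slc2a4, had 13.21% of its reads on mitochondrial genes, the highest share of all libraries, and the call held without it (0.95 on the log2 scale).

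Trarg1, which marks GLUT4 vesicles and supports their traffic, moved against Slc2a4 on HFD. It measured 422, 277, 343 and 306 CPM in the 4 ND-fed wild type libraries, 319, 622, 706, 566 and 797 CPM in the 5 HFD-fed wild type libraries and 680.0, 762, 688, 681 and 640.3 CPM in the 5 HFD-fed Acod1-/- libraries. Of the HFD-fed wild type libraries, 4 were above all ND-fed ones and replicate 1 was not. Trarg1 rose 1.79-fold on HFD (0.84 ± 0.21, adjusted p = 0.00746), did not differ by genotype beyond the test (0.20 ± 0.20, adjusted p = 0.549) and was 2.05-fold higher in HFD-fed Acod1-/- than in ND-fed wild type mice (1.03 ± 0.21, adjusted p = 0.0121).

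Grb10, the adaptor that restrains the receptor and is a target of mTORC1, was at 59.0, 39.9, 74.8 and 64.6 CPM in the 4 ND-fed wild type libraries, 50.4, 42.7, 43.6, 41 and 41.6 CPM in the 5 HFD-fed wild type libraries and 72.7, 52.0, 65.7, 59.1 and 45.04 CPM in the 5 HFD-fed Acod1-/- libraries. The HFD-fed wild type values were close together, below 51 CPM and above 40 CPM, and ND-fed replicate 2 lay below all of them. Grb10 fell 1.36-fold (-0.44 ± 0.17, adjusted p = 0.0504) and was 1.34-fold higher with the deletion (0.42 ± 0.16, adjusted p = 0.0998), just inside the threshold. That second call was lost in 11 of 14 fits that left out a library, and the diet call in 2, without ND-fed replicate 3 or 4. Grb14, the other adaptor, was at 29.8, 22.4, 22.2 and 32.4 CPM in the 4 ND-fed wild type libraries, 39.4, 39.2, 48.8, 46.9 and 37.4 CPM in the 5 HFD-fed wild type libraries and 35.1, 17.4, 21.1, 25.2 and 40.4 CPM in the 5 HFD-fed Acod1-/- libraries. All HFD-fed wild type libraries were above all ND-fed ones. Grb14 rose 1.59-fold on HFD (0.67 ± 0.22, adjusted p = 0.0272) and was 1.52-fold lower with the deletion (-0.60 ± 0.21, adjusted p = 0.0716), a call lost in 6 of 14 such fits.

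By genotype in eWAT, 5 members were higher and 1 lower, against 19.9% of the 14936 genes tested, 9.13% higher and 10.8% lower. Among them Insr, Irs1 and Slc2a4 kept their call in all 14 fits that left out 1 library, and the count of called members ranged from 3 to 6, with 3 without wild type HFD replicate 1 or 4 or without Acod1-/- replicate 2, 3 or 4. Insr alone had groups that did not overlap, compared with 7.14% of all genes tested. The median was 0.42 over the 9 genes and 0.04 over all genes. Against ND-fed wild type mice, 2 members were called in HFD-fed Acod1-/- mice, Akt2 and Trarg1, both higher, beside 26.5% of genes tested.

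Values within each header series were as follows. In series 1 alone, with 4 libraries per genotype, Insr was at 0.83 (adjusted p = 0.00672), Irs1 at 1.18 (adjusted p = 0.00535) and Slc2a4 at 1.53 (adjusted p = 0.00640). Series 2 holds 1 library per HFD-fed genotype, whose log2 differences were 0.06 for Insr, -0.25 for Irs1 and -0.38 for Slc2a4. These set 1 library against 1, with the spread taken from the ND-fed libraries, and are no test of whether the relation differed between series. With series as a term in the fit, Insr (0.68, adjusted p = 0.0170), Irs1 (0.91, adjusted p = 0.0312) and Slc2a4 (1.18, adjusted p = 0.0422) were called, and so was Grb14 (-0.64, adjusted p = 0.0650). For diet, the same term left Insr (-0.88, adjusted p = 0.0141), Irs1 (-1.62, adjusted p = 0.00826), Grb10, Grb14 and Trarg1 called, but not Irs2 (-0.62, adjusted p = 0.213) or Slc2a4 (-0.85, adjusted p = 0.194). In series 2 the diet comparison in eWAT has 1 HFD-fed wild type library, whose log2 difference from the ND-fed ones was -0.59 for Insr, -1.14 for Irs1 and -0.25 for Slc2a4, too few libraries to say which results hold within the series.

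**Figure D2:**
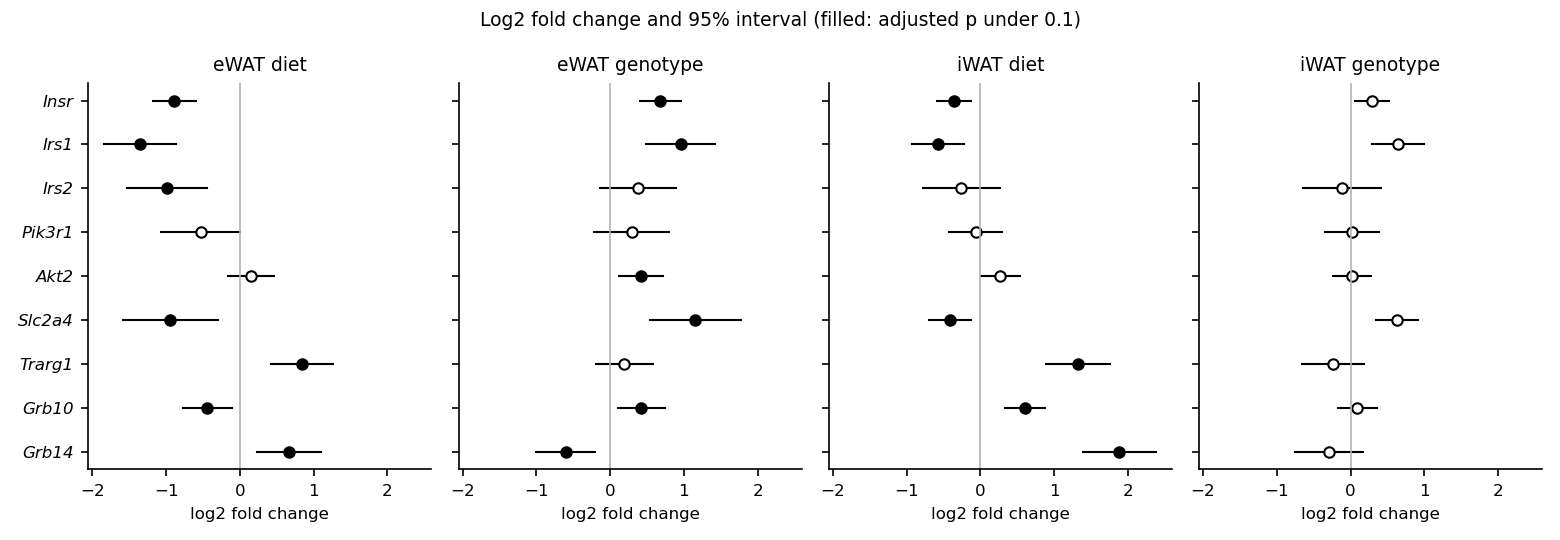
Log2 fold change (horizontal axis) and approximate 95% interval (normal approximation) of each of the 9 genes for diet (HFD over ND, wild type) and genotype (Acod1-/- over wild type, HFD) in eWAT and iWAT, with filled points for an adjusted p under 0.1 by edgeR. In eWAT 7 points are filled for diet and 6 for genotype; in iWAT 6 are filled for diet and 0 for genotype.

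In bulk tissue, fewer adipocytes and less RNA of a gene per adipocyte cannot be told apart. Of the 8 adipocyte markers (Adipoq and Plin1 among them), 0 rose and 4 fell on HFD in eWAT, and 4 were higher and 0 lower with the deletion. All 10 macrophage markers rose on HFD and all 10 were lower with the deletion, while 6 of 6 fibroblast and progenitor markers rose on HFD and 3 were lower with the deletion. The part of these shifts in the results above was not tested. As a description, each gene was also divided by the summed adipocyte markers of its library, in CPM per 1000 CPM of those markers. On this scale Insr ran from 4.27 to 5.69 in ND-fed and 2.57 to 3.99 in HFD-fed wild type eWAT, Irs1 from 1.54 to 2.25 and 0.748 to 1.13, and Slc2a4 from 3.55 to 4.42 and 1.959 to 3.10. These 3 and Irs2 lay apart below the ND-fed libraries, and Grb14 and Trarg1 apart above them, whereas Grb10, at 1.41 to 1.88 and 1.06 to 2.83, overlapped. For Irs2 and Grb14 the groups nearly touched. The nearest ND-fed and HFD-fed libraries were both at 1.698 for Irs2, and at 0.9513 and 0.9553 for Grb14. Between HFD-fed genotypes in eWAT, all 9 ratios overlapped, as all members except Insr did in CPM. The mean log2 differences of the ratios, Acod1-/- minus wild type, were 0.66 for Slc2a4, 0.40 for Irs1 and 0.21 for Insr. They were -0.04 for Irs2, -0.04 for Akt2, -0.07 for Grb10, -0.22 for Trarg1, -0.31 for Pik3r1 and -1.15 for Grb14. These differences were not tested, and overlap does not show that they are absent. Insr ran from 3.25 to 3.97 in the Acod1-/- libraries. Slc2a4 ran from 3.02 to 5.68 there, so that its overlap with HFD-fed wild type, at most 3.10, was narrow. In iWAT, Insr, Irs1 and Slc2a4 lay apart below and Grb14 and Trarg1 apart above the ND-fed libraries on this scale, with Slc2a4 from 4.53 to 5.73 in ND-fed and 2.54 to 3.44 in HFD-fed wild type mice, and Grb10 overlapped. Irs1 and Slc2a4 lay apart above wild type in the Acod1-/- iWAT libraries, Slc2a4 from 3.90 to 5.10, and Insr overlapped.

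**Figure D3:**
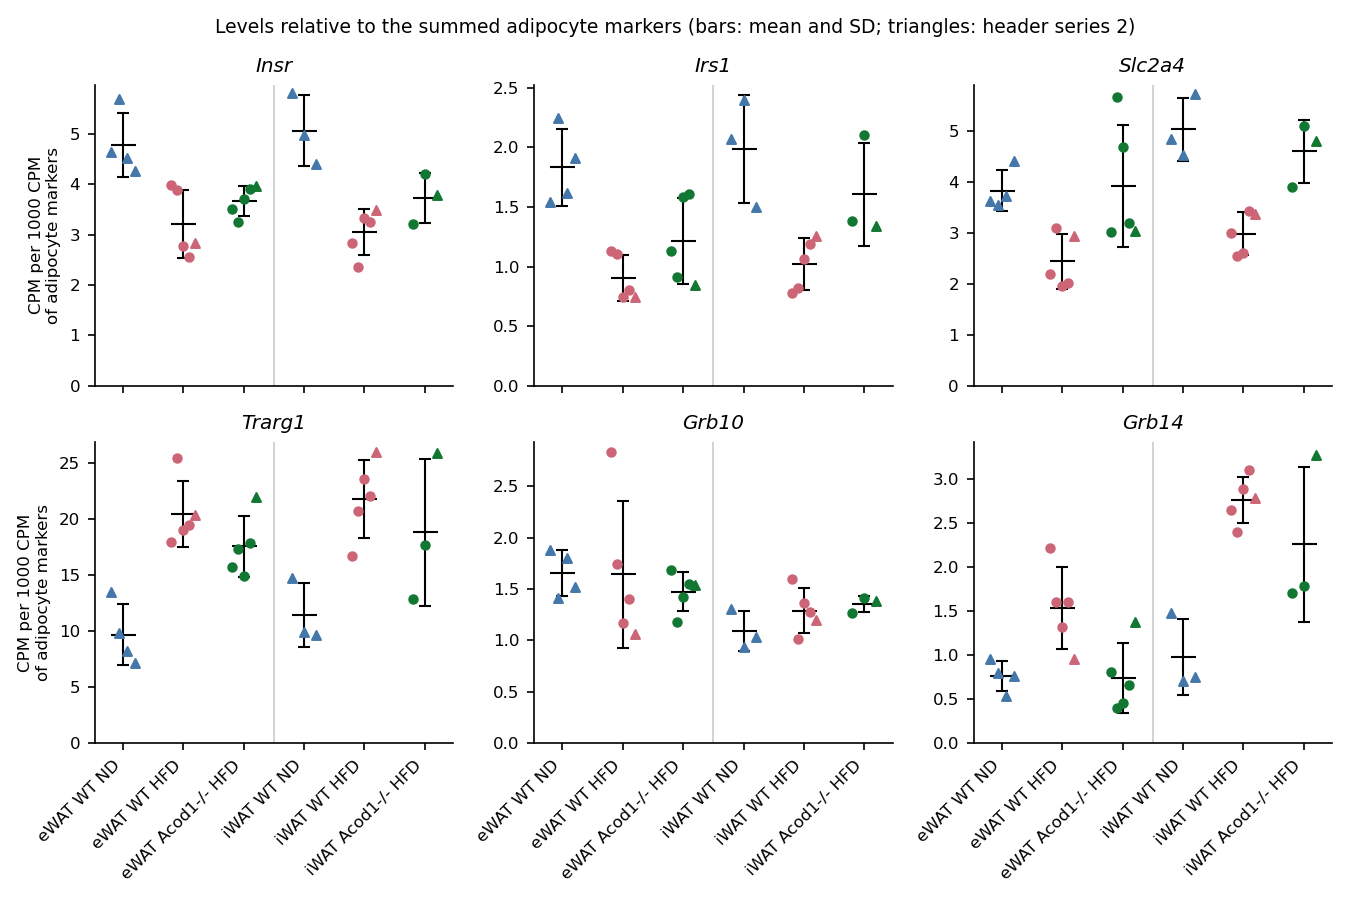
Level of 6 genes relative to the summed adipocyte markers (CPM per 1000 CPM of the 8 markers, vertical axis from 0) in each library of the 6 groups, with group mean and SD as bars and triangles for header series 2. Insr, Irs1 and Slc2a4 are apart between diets and overlap between genotypes in eWAT.

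In iWAT, HFD lowered Insr, Irs1 and Slc2a4 and raised Trarg1, Grb10 and Grb14 in wild type mice. That is 3 members lower and 3 higher, against 50.1% of the 14801 genes tested in either direction, 24.2% lower and 25.9% higher, and the groups of all 6 did not overlap, against 47.1% of all genes. The median was -0.07 (log2) over the 9 genes and 0.004 over all genes.

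Grb14 showed the largest change of any member in any diet or genotype comparison. It measured 42.8, 21.4 and 27.2 CPM in the 3 ND-fed wild type libraries, 99.3, 110.4, 118, 112 and 111 CPM in the 5 HFD-fed wild type libraries and 85.4, 64.2 and 124 CPM in the 3 HFD-fed Acod1-/- libraries of iWAT. The ND-fed libraries all lay below 43 CPM and the HFD-fed ones all above 64 CPM. Grb14 rose 3.69-fold on HFD (1.89 ± 0.25, adjusted p = 0.00034), and Acod1-/- mice on HFD were 3.02-fold above ND-fed wild type mice (1.60 ± 0.27, adjusted p = 0.00171). Grb10 was at 37.7, 28.5 and 37.04 CPM in the 3 ND-fed wild type libraries, 60.0, 46.5, 55.5, 46.1 and 47.8 CPM in the 5 HFD-fed wild type libraries and 63.1, 50.7 and 52.4 CPM in the 3 HFD-fed Acod1-/- libraries. All HFD-fed libraries exceeded all ND-fed ones, and Grb10 rose 1.52-fold (0.60 ± 0.14, adjusted p = 0.00555), the opposite of its change in eWAT.

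Trarg1 in iWAT measured 425, 300.4 and 346 CPM in the 3 ND-fed wild type libraries, 626, 949, 963, 794 and 1032 CPM in the 5 HFD-fed wild type libraries and 641, 635 and 976 CPM in the 3 HFD-fed Acod1-/- libraries. It rose 2.502-fold on HFD (1.32 ± 0.22, adjusted p = 0.00107), with every HFD-fed library above every ND-fed one. Slc2a4 measured 140.4, 138 and 206 CPM in the 3 ND-fed wild type libraries, 112, 117, 106, 124 and 134 CPM in the 5 HFD-fed wild type libraries and 195, 183 and 182 CPM in the 3 HFD-fed Acod1-/- libraries. The HFD-fed wild type libraries, from 106.4 to 134.4 CPM, lay below all others. Slc2a4 fell 1.33-fold (-0.41 ± 0.15, adjusted p = 0.0420). That call was lost without ND-fed replicate 3, the highest library (-0.22, adjusted p = 0.154), which also had the highest brown and beige marker sum in iWAT (1064 CPM). ND-fed replicate 1, which held skeletal muscle RNA, a tissue that also expresses Slc2a4, was at 140.4 CPM, next to replicate 2 at 137.7 CPM.

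Insr in iWAT measured 168, 152 and 158 CPM in the 3 ND-fed wild type libraries, 106, 108, 136, 117 and 139 CPM in the 5 HFD-fed wild type libraries and 161, 151 and 143 CPM in the 3 HFD-fed Acod1-/- libraries. It fell 1.28-fold on HFD (-0.36 ± 0.12, adjusted p = 0.0288), again with no overlap. Irs1 measured 59.8, 72.8 and 54.0 CPM in the 3 ND-fed wild type libraries, 29.2, 37.8, 43.5, 42.95 and 50.3 CPM in the 5 HFD-fed wild type libraries and 69.0, 75.4 and 50.5 CPM in the 3 HFD-fed Acod1-/- libraries, and fell 1.49-fold (-0.58 ± 0.18, adjusted p = 0.0254), a call lost without ND-fed replicate 2 (-0.46, adjusted p = 0.118). Irs2 ran from 39.4 to 63.8 CPM in ND-fed, 30.0 to 63.1 CPM in HFD-fed wild type and 30.8 to 43.2 CPM in Acod1-/- iWAT, Pik3r1 from 186 to 315 CPM, 189.8 to 288 CPM and 238 to 269 CPM, and Akt2 from 256 to 299 CPM, 267 to 378 CPM and 319 to 370.3 CPM, with overlap between diets in each. Irs2 (-0.26, adjusted p = 0.463), Pik3r1 (-0.07, adjusted p = 0.800) and Akt2 (0.27, adjusted p = 0.125) did not pass. With header series as a term, Trarg1 (1.71, adjusted p = 0.00159), Grb10 (0.54, adjusted p = 0.0519) and Grb14 (2.21, adjusted p = 0.00160) were called, and Insr (-0.26, adjusted p = 0.220), Irs1 (-0.54, adjusted p = 0.132) and Slc2a4 (-0.30, adjusted p = 0.273) were not. In series 2 the 1 HFD-fed wild type library differed from the ND-fed ones by -0.13 for Insr, -0.24 for Irs1 and -0.20 for Slc2a4, again too few libraries for a reading within the series.

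Markers of other cell types moved with the diet in iWAT. On HFD 3 of 8 adipocyte markers rose and 1 fell, and 7 of 10 macrophage, 6 of 6 fibroblast and progenitor and 5 of 5 endothelial markers rose. All 6 lymphocyte, 7 of 8 skeletal muscle and 3 of the 4 brown and beige adipocyte markers tested fell. The brown and beige sums were 86.9, 297 and 1064 CPM in ND-fed replicates 1, 2 and 3 and 27.9 to 62.8 CPM in the HFD-fed wild type libraries. The share of reads on no feature was 10.51% to 11.22% in ND-fed and 6.96% to 9.78% in HFD-fed wild type iWAT. The part of these shifts in the iWAT diet differences was not tested.

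By genotype in iWAT no member was called, as was no gene of the 14801 tested (0.00%), although 2468 genes stood below 0.05 before adjustment and the lowest adjusted p of any gene was 0.108. The differences for Slc2a4 (0.63 ± 0.15, adjusted p = 0.137), Irs1 (0.64 ± 0.18, adjusted p = 0.154) and Insr (0.29 ± 0.12, adjusted p = 0.237) did not pass. Their approximate 95% intervals were 0.341 to 0.911, 0.290 to 0.997 and 0.066 to 0.521 on the log2 scale. These intervals use a normal approximation and are narrower than the quasi-likelihood test implies. For these 3 genes every Acod1-/- library lay above every HFD-fed wild type one, an order that 3.66% of all genes tested showed. Macrophage marker sums were also apart, 491 to 584 CPM in Acod1-/- and 675 to 1671 CPM in HFD-fed wild type iWAT, and so were brown and beige sums, 63.9 to 134 CPM and 27.9 to 62.8 CPM. None of these markers passed edgeR's test for genotype, and their part in these differences was not tested. DESeq2's Wald test called Irs1 (adjusted p = 0.0296) and Slc2a4 (adjusted p = 0.0023), among 1072 of 14801 genes called. In header series 1 alone, with 4 wild type and 2 Acod1-/- libraries, edgeR called Insr (0.42, adjusted p = 0.0955), Irs1 (0.92, adjusted p = 0.0328), Slc2a4 (0.72, adjusted p = 0.0216) and Grb14 (-0.55, adjusted p = 0.0716). In that fit 2157 of 14429 genes were called. Series 2 holds 1 library per genotype and gave no reading of its own. Leaving out Acod1-/- replicate 3 gave 3 calls, Insr, Irs1 and Slc2a4, and leaving out wild type HFD replicate 5 gave Slc2a4 alone among the members. The share of all genes called in these fits is not given here. With only the 1 Acod1-/- library labelled 16 weeks, the Slc2a4 difference was 0.70 on the log2 scale. Against ND-fed wild type iWAT, Acod1-/- iWAT on HFD had Grb10 (0.69, adjusted p = 0.00720), Grb14 and Trarg1 (1.09, adjusted p = 0.00723) called, all higher, 3 of 9 against 34.6% of genes tested.

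Ratios between members within a library do not depend on its size. Per kilobase, Trarg1 over Slc2a4 was 2.71 ± 0.935 in ND-fed wild type, 8.97 ± 1.22 in HFD-fed wild type and 5.10 ± 1.85 in Acod1-/- eWAT (SD, n = 4, 5 and 5). In iWAT the same ratio was 2.42 ± 0.719, 7.76 ± 1.46 and 4.26 ± 1.21 (n = 3, 5 and 3). In both depots the HFD-fed wild type libraries lay apart above the ND-fed ones. Acod1-/- libraries overlapped the HFD-fed wild type ones in eWAT, 3.21 to 7.60 against 7.27 to 10.2, and lay below them in iWAT, 3.47 to 5.65 against 5.86 to 9.54. Grb14 over Insr, the inhibitory adaptor per receptor transcript, was 0.306 ± 0.0743, 0.920 ± 0.219 and 0.380 ± 0.182 in eWAT and 0.362 ± 0.112, 1.75 ± 0.162 and 1.16 ± 0.440 in iWAT. Both ratios set a member that rose on HFD over a member that fell, a choice that favours separation by diet. Irs1 over Irs2 overlapped between diets in both depots, 0.387 to 0.719 in ND-fed and 0.305 to 0.649 in HFD-fed wild type eWAT. Irs1 over Insr overlapped between diets in iWAT and not in eWAT, and Grb14 over Grb10 overlapped in neither depot. No ratio was tested.

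**Figure D4:**
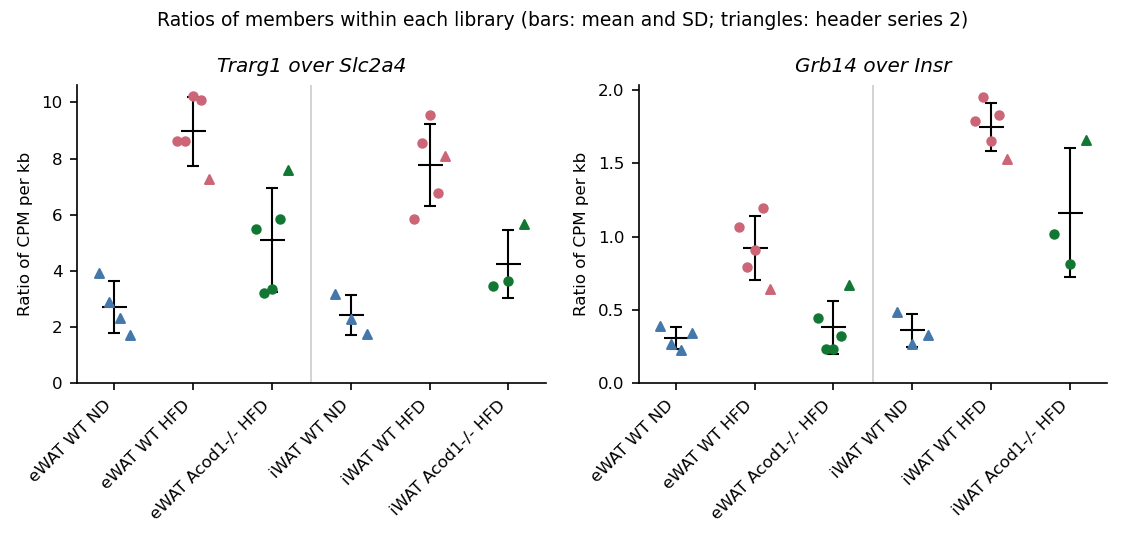
Ratio of CPM per kb of Trarg1 over Slc2a4 and of Grb14 over Insr (vertical axes from 0) in each library of the 6 groups, with group mean and SD as bars and triangles for header series 2. In each depot the HFD-fed wild type libraries lie above all ND-fed libraries of the same depot in both ratios.

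Between depots, the 9 genes were compared as eWAT over iWAT within each condition, over 15034 genes tested in a fit of all 25 libraries. On ND in wild type mice 1 member was called, Grb10, 1.73-fold higher in eWAT (0.79 ± 0.18, adjusted p = 0.00270), against 31.7% of genes tested. On HFD in wild type mice 6 members were lower in eWAT and 0 higher, against 18.6% of genes tested in either direction and 7.75% of genes tested lower. They were Grb14 (-1.38 ± 0.22, adjusted p = 0.00044), Slc2a4 (-0.71 ± 0.26, adjusted p = 0.0750), Irs1 (-0.67 ± 0.22, adjusted p = 0.0427), Trarg1 (-0.54 ± 0.19, adjusted p = 0.0711), Insr (-0.42 ± 0.12, adjusted p = 0.0313) and Akt2 (-0.41 ± 0.13, adjusted p = 0.0481). Without eWAT HFD-fed wild type replicate 1, which had the lowest adipocyte and the highest macrophage sum of its group, Grb14 was the 1 call left, and there were 2 or 3 without eWAT replicate 4 or iWAT HFD-fed wild type replicate 3 or 5. In HFD-fed Acod1-/- mice 1 member was called, Grb14 (-1.71 ± 0.24, adjusted p = 0.00024), against 3.81% of genes tested. Grb14 was thus 2.599-fold and 3.27-fold higher in iWAT on HFD in the 2 genotypes, while on ND the depots differed by -0.19 ± 0.26, adjusted p = 0.623, which did not pass.

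The diet effect itself was tested for a difference between depots as an interaction, eWAT minus iWAT. It was called for 3 members, against 29.0% of genes tested: Grb10 (-1.01 ± 0.23, adjusted p = 0.00335), which fell in eWAT and rose in iWAT, Grb14 (-1.19 ± 0.34, adjusted p = 0.0147), which rose in both and more in iWAT, and Insr (-0.50 ± 0.20, adjusted p = 0.0709), which fell in both and more in eWAT. The Insr call was lost in 8 of 25 fits that left out 1 library. Irs1, Irs2, Pik3r1, Akt2, Slc2a4 and Trarg1 did not pass, with adjusted p from 0.122 to 0.796. The genotype effect did not differ detectably between depots for any member (adjusted p from 0.531 to 0.853, with 1 call among all 15034 genes, 0.00665%). Thus the calls in eWAT and their absence in iWAT do not show a depot difference in the genotype effect.

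**Figure D5:**
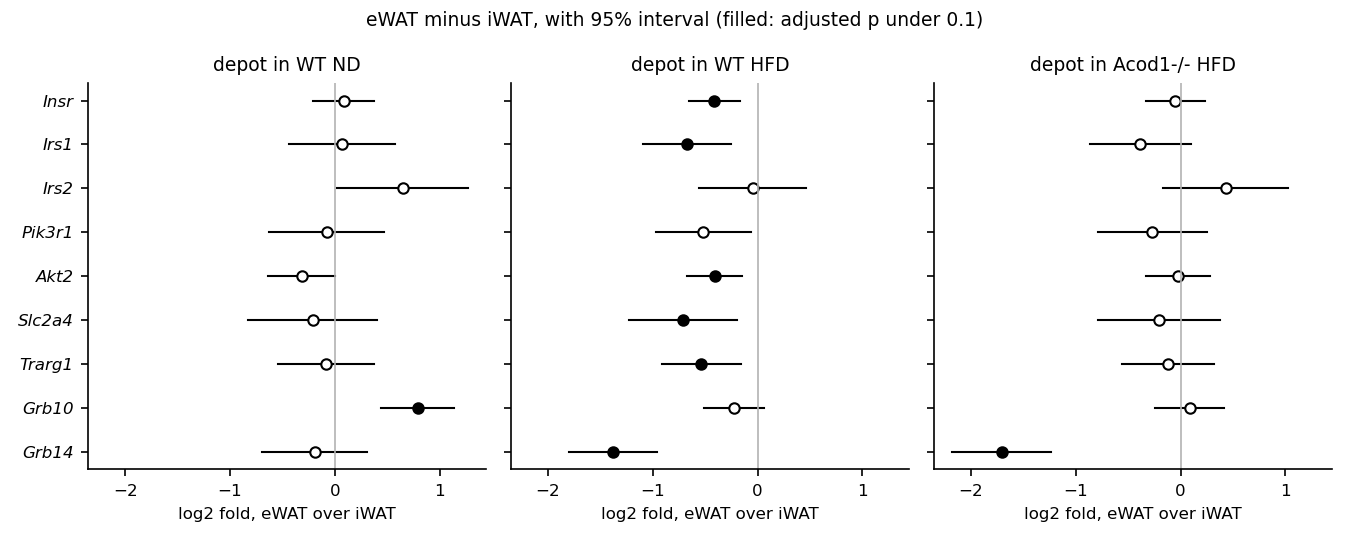
Log2 fold of eWAT over iWAT (horizontal axis) and approximate 95% interval (normal approximation) of each of the 9 genes in wild type mice on ND, wild type mice on HFD and Acod1-/- mice on HFD, with filled points for an adjusted p under 0.1 by edgeR. Grb14 lies left of 0 in both HFD panels, and Grb10 is the filled point on ND.

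The other genes of the pathway were followed in 9 lists with 128 genes, of which 126 were tested in eWAT and 127 in iWAT. On HFD in wild type eWAT, 22 of the 126 rose and 44 fell, 52.4%, close to the 51.8% of all genes. By genotype in eWAT, 21 were higher and 16 lower, 29.4%, against 19.9% of all genes. On HFD in iWAT, 28 rose and 40 fell, 53.5%, against 50.1%, and by genotype in iWAT 0 were called. The lists were described only by such counts.

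Among receptor substrates and adaptors, 3 of 12 rose and 4 fell on HFD in eWAT, and 2 were higher and 3 lower by genotype. Igf1r, the IGF-1 receptor, fell (-0.85, adjusted p = 0.0115), and Dok1, a docking protein abundant in blood cells, rose (1.37, adjusted p = 0.00051) and was lower with the deletion (-1.16, adjusted p = 0.0110). In iWAT 4 of 13 rose and 4 fell on HFD, led by Cavin1, a coat protein of caveolae (1.495, adjusted p = 9.4e-05), and by the adaptor Sh2b1 (-0.83, adjusted p = 0.00015). Of the 10 PI3-kinase subunits other than Pik3r1, 3 rose and 2 fell on HFD in eWAT, and 0 were higher and 3 lower by genotype. Pik3cd, the catalytic subunit known best from leukocytes, rose (1.40, adjusted p = 0.00360) and was lower with the deletion (-1.35, adjusted p = 0.0144), beside macrophage marker sums that moved the same way. In iWAT Pik3cd fell on HFD (-2.70, adjusted p = 7.4e-05), where lymphocyte marker sums were also lower, while 7 of 10 macrophage markers rose. Pik3c3, the class III kinase of endosomes, fell in eWAT (-0.38, adjusted p = 0.0372). Pik3r3, another regulatory subunit, rose in iWAT (1.13, adjusted p = 0.00133).

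For AKT activation, 0 of 9 rose and 4 fell on HFD in eWAT. Pdpk1, the kinase that phosphorylates AKT, fell (-0.67, adjusted p = 0.00043) and was higher with the deletion (0.49, adjusted p = 0.0110), the 1 call of that list by genotype. In iWAT the list had 1 call on HFD, Rictor of mTORC2, which fell (-0.65, adjusted p = 0.00312). Among AKT substrates and effectors, 4 of 16 rose and 8 fell on HFD in eWAT, and 3 were higher and 0 lower by genotype. Pde3b, the phosphodiesterase through which insulin restrains lipolysis, fell from a mean of 635 to 218 CPM (-1.54, adjusted p = 0.00022) and was at 419 CPM with the deletion (0.94, adjusted p = 0.0110). Gsk3b, the kinase that AKT inhibits, rose on HFD (0.39, adjusted p = 0.0106). In iWAT 3 rose and 7 fell, among them Acly, which makes cytosolic acetyl-CoA (-1.73, adjusted p = 0.00278), while Akt1s1, the PRAS40 subunit of mTORC1, rose (0.75, adjusted p = 0.00047).

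Negative regulators numbered 4 of 22 higher and 4 lower on HFD in eWAT, and 1 higher and 5 lower by genotype. Inpp5d, the lipid phosphatase SHIP1 of blood cells, was lower with the deletion (-1.58, adjusted p = 0.0201), and Ptprf, a receptor phosphatase, fell on HFD (-1.40, adjusted p = 0.00425). Rps6kb1, the S6 kinase that phosphorylates IRS1, was higher with the deletion (0.37, adjusted p = 0.0475). In iWAT 5 rose and 9 fell on HFD, with Trib3, a pseudokinase that binds AKT, higher (0.80, adjusted p = 0.0139) and Inpp5d lower (-1.66, adjusted p = 0.00076), and Trib3 rose in eWAT as well (0.61, adjusted p = 0.0512). In GLUT4 storage and traffic, 3 of 24 rose and 6 fell on HFD in eWAT, and 5 were higher and 3 lower by genotype. Sort1, the sortilin that helps to build GLUT4 vesicles, fell (-1.21, adjusted p = 0.00023) and was higher with the deletion (0.67, adjusted p = 0.0143), the same directions as Slc2a4 and not those of Trarg1 on HFD. Rab8a, a small GTPase, rose on HFD (0.56, adjusted p = 0.00111), and Lrp1, an endocytic receptor, was lower with the deletion (-0.84, adjusted p = 0.04996). In iWAT 6 rose and 3 fell, led by Rala (0.53, adjusted p = 0.00454) and Tbc1d1 (-0.66, adjusted p = 0.00115).

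Among other glucose transporters and hexokinases, Slc2a3 (GLUT3) had means of 48.3 CPM in ND-fed, 5.49 CPM in HFD-fed wild type and 21.5 CPM in Acod1-/- eWAT. It fell on HFD (-3.13, adjusted p = 0.00019), was higher with the deletion (1.97, adjusted p = 0.0110), and fell in iWAT as well (-3.15, adjusted p = 4.9e-05). Hk3, a hexokinase of myeloid cells, rose in eWAT (3.19, adjusted p = 0.00470) and was lower with the deletion (-2.78, adjusted p = 0.0201). Dok1, Pik3cd, Inpp5d and Hk3 are known from blood cells, and the part of the macrophage and lymphocyte marker shifts in their values was not tested. In that list 2 of 13 rose and 6 fell on HFD in eWAT, 3 were higher and 1 lower by genotype, and 2 rose and 4 fell on HFD in iWAT, Slc2a10 among those that rose (2.06, adjusted p = 0.00215). Of 8 transcripts that insulin induces, 1 rose and 5 fell on HFD in eWAT, with Pnpla3, a lipogenic target of SREBP1c, lower (-1.60, adjusted p = 0.00026), and 4 were higher and 1 lower by genotype. Egr1, an immediate early gene, rose on HFD (1.10, adjusted p = 0.00123) and was lower with the deletion (-0.89, adjusted p = 0.0136). In iWAT 1 rose and 4 fell on HFD, with the elongase Elovl6 lower (-2.72, adjusted p = 0.00063) and Egr1 higher (0.85, adjusted p = 0.0542). Of 12 FOXO targets, 2 rose and 5 fell on HFD in eWAT and 2 were higher and 0 lower by genotype. Klf15, a transcription factor of fasting metabolism, fell (-1.81, adjusted p = 0.00055) and was higher with the deletion (1.25, adjusted p = 0.0136), while Gadd45a rose on HFD in eWAT (1.36, adjusted p = 0.00178) and in iWAT (1.03, adjusted p = 0.00486), where 3 rose and 5 fell, Ccng2 among the latter (-0.92, adjusted p = 0.00036).

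Patterns across libraries were compared as the root mean square difference of log2 CPM, standardized within each depot, over the 25 libraries, where 0 is an identical pattern and the median over 10581 genes was 1.38 to 1.42 for the 9 members. Insr and Irs1 were the closest pair of members (0.437), followed by Akt2 and Trarg1 (0.605) and Insr and Slc2a4 (0.659), and Insr and Grb14 the farthest (1.82). Over all genes the 3 most like Insr were Ivd (0.295), BC035947 and Aldh6a1, and those most like Irs1 were BC035947 (0.355), Adrb3 and Sfxn1. Kyat3 (0.378), Adhfe1 and Pccb were most like Slc2a4, and Flot1 (0.3002), Slc6a13 and Olfm1 most like Trarg1. For Grb14 they were Pltp (0.450), Rnd2 and Olfml3, for Akt2 Tbl2 (0.500), Slc22a3 and Mcur1, and for Grb10 Dirc2 (0.508), Adam15 and Slc25a26. Irs2 was nearest to Ptpn21 (0.580), Etv3 and Mfap1a, and Pik3r1 to Tst (0.741), Timm44 and Pygl. These libraries share depots, diets and header series, and the likeness is a description.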

How the data were processed

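Messenger RNA libraries of 25 adipose tissue samples were prepared with a directional kit and sequenced by the authors, who trimmed reads with cutadapt, discarded those under 18 bases, removed contaminants and aligned the rest with STAR 2.4.2a to mouse build mm10 (GRCm38.95), with bedtools also named in the submitters' processing notes. The authors deposited 1 table per library with raw read counts per gene and FPKM values, and the counts were used here and the FPKM were not. Rows naming no gene (no feature, 6.41% to 11.88%, and ambiguous, 1.52% to 2.07%, of the reads) stayed out of library sizes. The program that counted reads and its use of strand are not given in the sources used here.

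The analysis of the counts ran under R 4.3.3, with edgeR 4.0.16 and limma 3.58.1. It used TMM normalization, a filter that kept genes averaging 1 CPM or more, a quasi-likelihood fit per depot over its 3 groups or over all 25 libraries for depot comparisons, Benjamini-Hochberg adjustment over all genes tested and a threshold of 0.1. Python 3.11.15 made levels and figures. CPM per kb used the cDNA length in the files. The code was tested on simulated data. Alternatives were DESeq2 1.42.0, its size factors, no filter, a threshold of 0.05, header series, the replicate number as a block, only the groups compared and leaving out each library. The 9 members and all gene lists were chosen with earlier results of these data known. Other pathway genes were named by rule: in each list and each diet or genotype comparison, the called gene with the smallest adjusted p in each direction, except for a gene that is not reported here. For likeness, the 3 closest protein-coding genes averaging 5 CPM or more in both depots were named. Some same-numbered pairs of libraries deviated together and others did not, and whether both depots came from the same mice is not given. Libraries were treated as separate, and p-values measure the spread between them. If mice were shared, the depot and interaction tests ignore that pairing.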

Additional observations from a re-analysis of the deposited data

Results flagged for a closer look

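Akt2 in HFD-fed wild type eWAT replicate 1, at 160.6 CPM, lay below the other 4 libraries of its group (255 to 297 CPM) by more than Dixon's 95% critical value. It was 1 flag among 36 tests, of each member in each group of 4 or 5 libraries, and chance flags about 1 in 20. The tests of different members share libraries and are not independent. The same library had the lowest adipocyte marker sum (17780 CPM) and the highest macrophage marker sum (6768 CPM) of its group.

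The diet effect differed between eWAT and iWAT, as eWAT minus iWAT on the log2 scale in edgeR's interaction test with 25 libraries, for Insr (-0.50, adjusted p = 0.0709), Grb10 (-1.01, adjusted p = 0.00335) and Grb14 (-1.19, adjusted p = 0.0147). Grb10 and Grb14 passed in all 25 fits that left out 1 library, with adjusted p up to 0.0201 and 0.0664, and Insr in 17. ND-fed iWAT libraries also held more lymphocyte marker signal than the other iWAT libraries, and the part of that in these differences was not tested.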

How the results depend on the processing

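Directions and calls of the 99 gene results were kept in all with DESeq2's size factors and in 97 with DESeq2's Wald test, the exceptions being Irs1 and Slc2a4 for the iWAT genotype, 92 without the filter, 92 at a threshold of 0.05 and 84 with header series as a term. The cause of each change below was not tested. With series as a term, 42 pathway genes were called for the eWAT diet and 1 pathway gene for the iWAT genotype. The term gave 1 member (1048 of 14936 genes) for eWAT Acod1-/- on HFD against wild type on ND. It gave 2 members between depots on ND (4877 of 15034 genes). It turned Irs2 for the iWAT diet (0.28), Akt2 for the iWAT genotype (-0.008) and, for iWAT Acod1-/- on HFD against wild type on ND, Insr (0.019) and Irs2 (0.11). In series 2 alone, where each HFD-fed group is 1 library assumed to vary like the ND-fed ones, 2 members and 15 pathway genes were called for the eWAT diet, 0 and 0 for the eWAT genotype, 1 member for eWAT Acod1-/- against ND and 2 and 31 for the iWAT diet. In these fits fewer of all genes tested were called as well, and the counts are not read as particular to these genes. In series 2 alone the eWAT genotype values were -0.25 for Irs1, -0.63 for Irs2, -0.041 for Akt2 and -0.14 for Pik3r1. They were -0.38 for Slc2a4, 0.11 for Grb14 and -0.32 for Trarg1. Also there, Slc2a4 was -0.64 for eWAT Acod1-/- against ND, Irs2 0.48 for the iWAT diet, Irs1 -0.003 and Grb14 0.15 for the iWAT genotype, and Irs1 -0.24 for iWAT Acod1-/- against ND. For the iWAT genotype, 1 pathway gene was called with DESeq2's size factors and 3 without the filter. DESeq2's Wald test called 16 with 2 members, among 1072 of 14801 genes. Series 1 alone called 17 with 4 members, among 2157 of 14429 genes, and Irs2 was 0.015 there. Without the Acod1-/- libraries labelled 17 and 18 weeks, which leaves 1, Akt2 was -0.08 for the iWAT genotype and Insr 0.017 against ND. At a threshold of 0.05, 3 members were called for the eWAT genotype, among 1717 of 14936 genes. Without the filter 3 were called between depots on HFD in wild type mice, among 1963 of 36252 genes. With only the groups compared, Grb10 was 0.002 for eWAT Acod1-/- against ND.

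Same-numbered libraries correlated above 0.1 in 9 of 13 pairs in eWAT, 4 of 9 in iWAT and 5 of 11 between depots, and libraries matched their own number best in 13 of 26, 6 of 18 and 13 of 22 comparisons. The median correlation of same-numbered pairs was 0.16, 0.02 and 0.08, against -0.01, -0.02 and -0.05 for other pairs. Whether equal numbers mark a shared origin was not tested. The main fits did not read the numbers as pairs, and would not account for such sharing. With the replicate block, 1 call was lost, Akt2 for the eWAT genotype (adjusted p = 0.1075). The block also turned Grb10 (0.044) and Grb14 (-0.028) for eWAT Acod1-/- against ND, Irs2 for the iWAT genotype (0.12) and Irs1 between depots on ND (-0.007). The block and the omissions of libraries in the depot fits were chosen after seeing the data.

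Leaving out each library in turn gave 5 to 8 called members for the eWAT diet, 3 to 6 for the eWAT genotype, 2 to 3 for eWAT Acod1-/- against ND, 5 to 7 for the iWAT diet, 0 to 3 for the iWAT genotype, 3 to 4 for iWAT Acod1-/- against ND, 1 to 2 between depots on ND (2 without eWAT HFD-fed wild type replicate 1 or 5 or iWAT ND replicate 1), 1 to 7 on HFD, 1 to 1 in Acod1-/- mice, 2 to 4 for diet by depot and 0 to 0 for genotype by depot. Called pathway genes ranged from 52 to 68, 26 to 48, 56 to 76 and 0 to 21 in the eWAT diet, eWAT genotype, iWAT diet and iWAT genotype, the last with 5 without wild type HFD replicate 5 and 21 without Acod1-/- replicate 3. The share of all genes called in each of these fits is not given here, so the ranges are not read as particular to these genes. Values that did not pass and changed sign ranged, for Pik3r1, from -0.026 to 0.45 (eWAT genotype), -0.27 to 0.076 (iWAT diet), -0.058 to 0.11 (iWAT genotype), -0.25 to 0.10 (iWAT Acod1-/- against ND), -0.28 to 0.07 (depots, ND) and -0.091 to 0.38 (genotype by depot). For eWAT Acod1-/- against ND they were -0.17 to 0.11 for Grb10 and -0.12 to 0.19 for Grb14, for the iWAT genotype -0.24 to 0.14 for Irs2 and -0.053 to 0.11 for Akt2, and for iWAT Acod1-/- against ND -0.052 to 0.23 for Irs1. Between depots on ND they were -0.056 to 0.19 for Irs1, -0.39 to 0.002 for Slc2a4, -0.40 to 0.13 for Grb14 and -0.21 to 0.058 for Trarg1, on HFD -0.33 to 0.20 for Irs2, and in Acod1-/- mice -0.12 to 0.017 for Insr, -0.089 to 0.037 for Akt2 and -0.23 to 0.11 for Trarg1. Akt2 for diet by depot ranged from -0.16 to 0.034. Groups hold 3 to 5 libraries, and diet is nearly tied to header series.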
